A study of Mus musculus with 20 samples.

Results

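The genes described here are 9 genes of the klotho, vitamin D and mineral system, namely Kl, Klb, Fgfr1, Cyp2r1, Cyp27b1, Cyp24a1, Vdr, Slc34a3 and Trpv5. They were chosen by name, mapped to the Ensembl identifiers of the deposited table, and are 9 of its 57010 genes. Their RNA was measured by bulk mRNA-seq in 10 liver and 10 kidney libraries of male mice of the UM-HET3 stock, and the labels do not say which liver and kidney came from the same mouse. UM-HET3 mice are genetically heterogeneous, so each animal carries its own mixture of founder alleles.

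In each organ the 7c group held 6 mice and the vehicle group 4. All mice were 12 months old, carried a subcutaneous osmotic minipump for 28 days and were housed individually after surgery. The 7c pumps delivered repsox, tranylcypromine, DZNep, CHIR99021, forskolin and TTNPB at 0.1 mg/kg/day each and valproate at 1 mg/kg/day, dissolved in 50% DMSO and 50% PEG300. The vehicle pumps held that solvent alone, so both groups received it, and no mouse without a pump was sequenced. The comparison of 7c with vehicle asks whether this cocktail for partial chemical reprogramming shifts gene expression in the organs of middle-aged mice.

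Klotho is a membrane protein of the kidney tubule that joins FGF receptors, FGFR1 above all, to form the receptor of the bone hormone FGF23, and beta-klotho (Klb) does the same in liver and fat for the hormones FGF15 (FGF19 in humans) and FGF21. FGF23 makes the kidney excrete phosphate, lowers Cyp27b1, which makes active vitamin D (calcitriol), and raises Cyp24a1, which destroys it. Calcitriol acts through the vitamin D receptor (Vdr), and Cyp24a1 is among its most responsive target genes, so the enzyme that makes the hormone and the one that breaks it down are under opposing control.

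Library totals were 28383359 to 30571119 counts in 7c livers, all below the 31670440 to 34153084 of vehicle livers. In kidney they were 33003173 to 64872451 counts with 7c and 27855849 to 39651123 with vehicle. The labelled organs carried their defining genes. The summed level of 5 thick limb genes of the kidney (Umod, Slc12a1, Cldn16, Cldn10, Kcnj1) was 2364 to 3586 CPM (normalised counts, scaled to 1e6 per library with TMM) in kidneys and at most 1.16 CPM in livers, and Umod and Slc34a1, a proximal tubule gene, had no count in any liver. The summed level of 5 liver genes (Alb, Apoa1, Ttr, Cyp2e1, Serpina1c) was 2115 to 2935 CPM in kidneys and at least 69026 CPM in livers. Of the counts from 1 to 20, 78.5% in liver and 78.7% in kidney were even, so that most low counts moved in steps of 2 and counting intervals on them are too narrow and the limits given for a count of 0 may be too low.

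Kl had the highest mean level per length of the 9 genes in kidney and was nearly absent from liver, and the beta-klotho gene Klb was the reverse. The stretches before the start sites of 5 members are shown because these genes are at opposite ends of that contrast, or are the kidney enzyme and transporters of the group. They run from 250 bases before to 50 bases after the RefSeq start and were read in build GRCm38.p6, a different build from the GRCm39 gene positions given further on. RefSeq entries were at hand for 7 of the 9 members, with none for Cyp24a1 and Fgfr1. The Kl stretch is chr5:150952357-150952656 on the plus strand, that of Klb chr5:65348161-65348460 on the plus strand, that of Cyp27b1 chr10:127047996-127048295 on the plus strand, that of Slc34a3 chr2:25234185-25234484 on the minus strand and that of Trpv5 chr6:41680674-41680973 on the minus strand. Capitals mark 4 motifs searched on both strands, the GC box GGGCGG, the TATA-type motifs TATAAA and TATATA, and the nuclear receptor motif AGGTCA.
Kl: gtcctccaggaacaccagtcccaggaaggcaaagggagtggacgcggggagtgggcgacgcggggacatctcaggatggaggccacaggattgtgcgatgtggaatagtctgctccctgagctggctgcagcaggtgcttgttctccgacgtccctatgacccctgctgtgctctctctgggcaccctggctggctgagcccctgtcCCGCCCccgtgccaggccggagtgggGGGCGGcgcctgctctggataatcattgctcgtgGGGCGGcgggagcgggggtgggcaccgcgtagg
Klb: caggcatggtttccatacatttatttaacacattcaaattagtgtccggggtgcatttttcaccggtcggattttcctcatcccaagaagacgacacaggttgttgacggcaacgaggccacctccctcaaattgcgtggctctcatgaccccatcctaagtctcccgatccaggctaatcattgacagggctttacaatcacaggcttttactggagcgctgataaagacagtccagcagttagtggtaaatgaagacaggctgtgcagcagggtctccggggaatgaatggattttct
Cyp27b1: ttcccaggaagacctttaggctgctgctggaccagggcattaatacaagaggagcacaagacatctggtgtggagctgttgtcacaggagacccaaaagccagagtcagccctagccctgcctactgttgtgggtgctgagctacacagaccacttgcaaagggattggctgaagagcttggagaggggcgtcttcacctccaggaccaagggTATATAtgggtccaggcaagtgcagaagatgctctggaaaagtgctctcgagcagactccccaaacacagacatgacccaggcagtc
Slc34a3: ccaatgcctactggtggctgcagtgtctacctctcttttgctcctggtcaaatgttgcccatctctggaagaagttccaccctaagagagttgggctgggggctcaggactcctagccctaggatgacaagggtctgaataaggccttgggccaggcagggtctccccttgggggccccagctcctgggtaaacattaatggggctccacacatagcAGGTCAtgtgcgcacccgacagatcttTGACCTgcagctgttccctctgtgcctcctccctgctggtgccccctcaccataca
Trpv5: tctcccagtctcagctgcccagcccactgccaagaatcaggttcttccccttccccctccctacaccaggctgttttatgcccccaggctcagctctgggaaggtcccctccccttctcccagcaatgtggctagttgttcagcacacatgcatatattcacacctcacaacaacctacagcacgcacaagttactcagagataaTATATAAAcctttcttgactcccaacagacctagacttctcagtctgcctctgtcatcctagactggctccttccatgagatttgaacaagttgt

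The GC box occurred 3 times in the Kl stretch and 3 times in that of Vdr, and 35.7% of the 32851 RefSeq stretches of this length held it. TATATA began 37 bases before the start of Cyp27b1 and 45 before that of Trpv5, where it overlapped TATAAA 43 bases before the start. TATATA was present in 5.67% and TATAAA in 13.6% of all stretches. Slc34a3 had AGGTCA on the plus strand of the gene 33 bases before the start and on the other strand 6 bases before it, and 16.3% of all stretches held this motif. The number of CG pairs split the 7 members, with 22 in Cyp2r1, 19 in Kl, 15 in Vdr and 10 in Klb, against 2 in Cyp27b1, 2 in Slc34a3 and 1 in Trpv5, where the median of all stretches was 7. A match is a match of letters only, and no binding was measured here.

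Levels of different genes were compared as CPM per kilobase of annotated exon. In vehicle kidneys the order was Kl at 70.5 ± 17.5, Vdr at 62.4 ± 7.51, Slc34a3 at 39.2 ± 8.78, Cyp24a1 at 22.2 ± 11.8, Fgfr1 at 3.95 ± 0.517, Trpv5 at 2.72 ± 1.23, Cyp27b1 at 2.33 ± 0.661, Cyp2r1 at 0.165 ± 0.113 and Klb at 0.00265 ± 0.00531 CPM per kb (SD, n = 4). The ranges of the libraries overlapped between Kl and Vdr, between Vdr and Slc34a3, between Fgfr1 and Trpv5, between Trpv5 and Cyp27b1, and between Cyp2r1 and Klb, so the order within these neighbours is not set. The other steps, from Slc34a3 to Cyp24a1, from Cyp24a1 to Fgfr1 and from Cyp27b1 to Cyp2r1, had ranges that did not overlap, narrowly so for Slc34a3 (lowest 32.8) and Cyp24a1 (highest 31.9). The same order held for the means of the 6 7c kidneys, with Kl at 60.9 ± 16.1 and Cyp24a1 at 9.44 ± 5.95 CPM per kb (SD, n = 6). There the ranges of Vdr and Slc34a3 no longer overlapped, while those of Cyp24a1 (lowest 4.79) and Fgfr1 (highest 4.68) were separated only narrowly. With the longest transcript in place of all annotated exon the ranges of Cyp24a1 and Fgfr1 overlapped in both kidney groups, so their order is then not set. In vehicle livers Klb stood at 4.76 ± 0.760, Cyp2r1 at 4.64 ± 1.17 and Fgfr1 at 0.424 ± 0.177 CPM per kb (SD, n = 4), the first pair overlapping and Fgfr1 below both. The other 6 members were at most 0.0178 CPM per kb on average there.

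**Figure D1:**
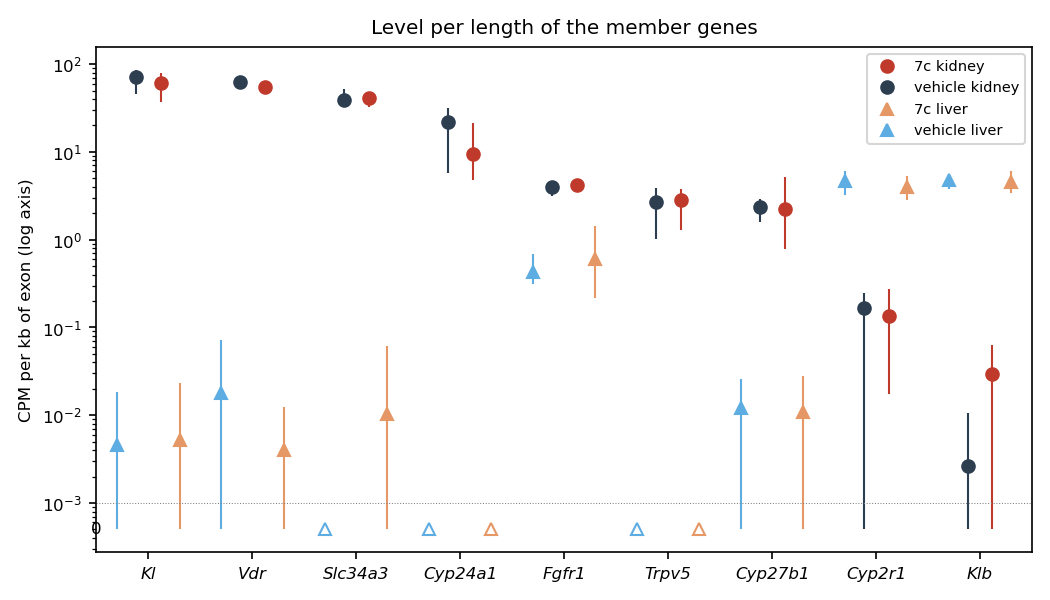
Mean level of each member gene in CPM per kb of exon (log axis) in vehicle and 7c kidneys (circles) and livers (triangles), with bars from the lowest to the highest library, which end at the bottom of the plot where the lowest library was 0; open symbols below the dotted line are groups without a count. Of the 9 genes, 7 sit higher in kidney, and Cyp2r1 and Klb sit higher in liver.

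The organ of each gene was read from the counts, since 7 of the 9 members reached the filter of 10 counts in 50% of the libraries in 1 organ alone and would have to differ in any test. The filter was passed by Klb, Cyp2r1 and Fgfr1 in liver and by all members but Klb in kidney. Kl (chr5:150876072-150917284, plus strand, GRCm39) had 11068 to 35871 counts in each of the 10 kidneys and 0 to 6 counts in each of the 10 livers. The vehicle kidneys averaged 658 CPM, while among the livers vehicle replicate 3 and 7c replicate 5 had 6 counts each, 7c replicate 6 had 2 and the other 7 had none. Vdr (chr15:97752306-97808511, minus strand) had 8854 to 21758 counts in kidneys, and in liver 14 counts in vehicle replicate 4, 2 counts in each of 2 7c livers and none in the other 7.

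The enzymes and transporters of the kidney followed the same split. Cyp24a1 (chr2:170324628-170339065, minus strand) and Trpv5 (chr6:41629107-41657703, minus strand), the calcium channel of the distal tubule, had no count in any of the 10 livers, which allows up to 3 counts in each, or more where a fragment gave a step of 2. Their means in vehicle kidneys were 78.9 CPM for Cyp24a1 and 8.81 CPM for Trpv5. Slc34a3 (chr2:25118910-25124376, minus strand), a sodium-phosphate cotransporter of the proximal tubule, had 4 counts in 1 7c liver and none in the other 9, against a mean of 92.5 CPM in vehicle kidneys. Cyp27b1 (chr10:126884119-126888875, plus strand) had 78 to 559 counts in kidneys and at most 2 in a liver.

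Klb (chr5:65505657-65541827, plus strand) had 516 to 976 counts in each liver. In kidney it had 2 counts in 1 of the 4 vehicle libraries and none in the other 3, and 12, 2, 12, 10, 2 and 0 counts in 7c replicates 1 to 6. The gene shares bases with Rpl9 on the opposite strand, and the strand setting of the counting is not given in the sources used here. The 6 adipocyte genes Adipoq, Plin1, Cfd, Cidec, Retn and Lep, of which none was at 0 throughout either kidney group, summed to 10.7, 14.6, 61.1, 37.4, 53.2 and 19.7 CPM in 7c kidneys 1 to 6 and to 5.81, 0.613, 6.45 and 14.2 CPM in vehicle kidneys 1 to 4. Beta-klotho is also a gene of fat cells, and the part of fat RNA in its kidney counts was not tested.

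The members that passed the filter in both organs could be tested without that limit, and both differed. Cyp2r1 (chr7:114147807-114162221, minus strand), which makes calcidiol, the circulating form of vitamin D, had 16.0, 15.7, 20.9 and 11.1 CPM in the 4 vehicle livers and 0.628, 0.780, 0.856 and 0 CPM in the vehicle kidneys. It was higher in liver by 5.40 ± 0.592 on the log2 scale in vehicle mice (SE, adjusted p = 1.64e-05 in edgeR's quasi-likelihood test) and by 5.56 ± 0.444 in 7c mice (adjusted p = 2.19e-08). Fgfr1 (chr8:26003670-26066824, plus strand), the receptor that klotho proteins join, was lower in liver, with a log2 difference of -2.59 ± 0.259 in vehicle mice (adjusted p = 7.53e-06) and -2.17 ± 0.361 in 7c mice (adjusted p = 7.26e-05, the same test). These calls are read against a background in which 53.4% of all genes tested in vehicle mice and 65.7% in 7c mice were called between the organs. Of all genes tested, 27.7% and 34.8% were called lower in liver and 25.7% and 30.9% higher. The mean kidney level of Cyp2r1 was 0.566 CPM, and the 5 liver genes summed to 2115 to 2935 CPM in the kidneys. Other liver genes were far lower in kidney beside their liver level. Cyp7a1 had at most 0.188 CPM in a kidney and at least 43.7 CPM in a liver. Gc had 12.2 to 30.4 CPM in kidneys and at least 5514 CPM in livers. The part of RNA carried over from liver was not tested.

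No member was called between 7c and vehicle. None of the 3 tested in liver and none of the 8 tested in kidney passed an adjusted p of 0.05 in edgeR's quasi-likelihood test, where the background was 0.00666% of 15012 genes called in liver and 0.0% of 17749 in kidney. In kidney 463 genes had an unadjusted p under 0.05, and DESeq2 called 18 genes, edgeR's likelihood ratio test 14 and limma-voom 2, no member among them. Of the 8 members 1, Cyp24a1, had an unadjusted p under 0.05, as did 2.61% of all genes there, and none of the 3 in liver did, where the share was 3.76%. Because these are whole-tissue libraries, fewer cells of a type and less RNA per cell cannot be told apart.

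**Figure D2:**
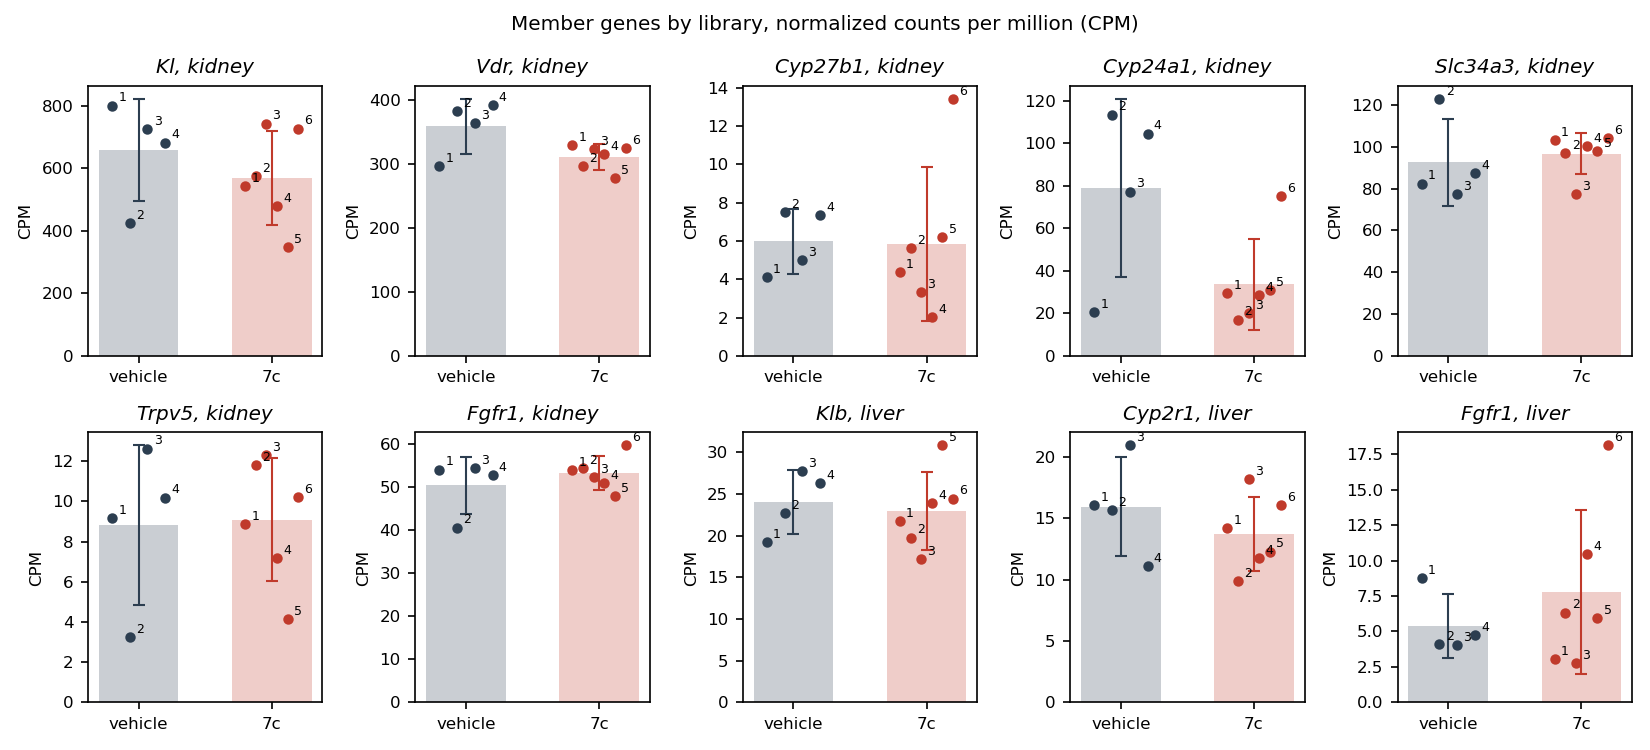
Normalized CPM of 7 members in kidney and 3 in liver, one point per library with its replicate number, bars at the mean and error bars of 1 SD (vehicle n = 4, 7c n = 6). The 7c and vehicle points overlap in every panel; for Cyp24a1 the vehicle kidneys 2, 3 and 4 lie above all 7c kidneys, and vehicle kidney 1 lies among them.

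Cyp24a1, the enzyme that inactivates vitamin D, had the largest fold change of the 8 members tested in kidney. The vehicle kidneys had 20.5, 113, 77.2 and 105 CPM in replicates 1 to 4. The 7c kidneys had 29.6, 17.1, 20.1, 28.6, 30.8 and 75.3 CPM in replicates 1 to 6. Vehicle kidney 1 lay inside the range of the low 7c kidneys, and 7c kidney 6 lay near vehicle kidney 3, so the groups overlapped, with 2 of the 6 7c kidneys below all vehicle kidneys. The vehicle kidneys averaged 78.9 ± 41.9 CPM (SD, n = 4), and the mean of the 7c kidneys was 33.6 ± 21.2 CPM (SD, n = 6). The log2 fold change was -1.23 ± 0.453 (SE), with an unadjusted p of 0.0181 that ranked 155 of 17749 genes and an adjusted p of 0.997 in edgeR. An exact two-sided permutation test of the log2 CPM gave p = 0.110, where the smallest p this design can give is 0.00476. The fold change was -1.64 without 7c kidney 6, -1.55 without vehicle kidney 1 and -1.0 without vehicle kidney 2, and the adjusted p ranged from 0.476 to 1.00 over all alternatives. The adipocyte sums above were higher in 5 of the 6 7c kidneys than in all vehicle kidneys, and across the 10 kidneys their r with Cyp24a1 was -0.52, given as a description. The part of fat RNA in the Cyp24a1 values was not tested. The gene shares bases with Pfdn4 on the opposite strand.

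Vdr, the receptor whose target Cyp24a1 is, differed less. The vehicle kidneys had 296, 382, 364 and 392 CPM, and the 7c kidneys lay between 277 and 330 CPM with a median of 319 CPM. Again vehicle kidney 1 was the exception, lying inside the 7c range while the other 3 vehicle kidneys lay above all 7c kidneys. The log2 fold change was -0.20 ± 0.107 (SE, unadjusted p = 0.0804 and adjusted p = 0.997 in edgeR), and the exact permutation test, unadjusted for the 11 gene and tissue pairs tested this way, gave p = 0.0476. It was -0.29 without vehicle kidney 1. Across the 10 kidneys Vdr had r = -0.55 with the adipocyte sums given above, as a description, and the part of fat RNA in its values was not tested.

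The enzyme that makes calcitriol had a wide spread between mice and was not called. Cyp27b1 had 4.11, 7.49, 5.00 and 7.37 CPM in vehicle kidneys and 2.02 to 13.4 CPM (median 4.99) in 7c kidneys, with 7c kidney 6 above all others. The log2 fold change was -0.04 ± 0.421 (SE), with an SE far wider than the change itself. It moved to -0.48 at the lowest and 0.14 at the highest when single mice were left out, and to -0.67 with the replicate number as a block. Cyp2r1 had 0 to 32 counts in a kidney, too few for a stable value, and a log2 fold change of -0.34 ± 0.816 (SE). That value moved to -0.74 without vehicle replicate 4, to -0.07 without vehicle replicate 3 and to -1.01 with the block.

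Kl itself had 800, 423, 726 and 682 CPM in vehicle kidneys 1 to 4. The 7c kidneys ranged from 346 to 742 CPM with a median of 559 CPM, and only 7c kidney 5 lay below all vehicle kidneys. The log2 fold change was -0.21 ± 0.220 (SE, adjusted p = 0.997 in edgeR; exact permutation p = 0.443), and it ran from -0.36 to -0.10 with single mice left out. Fgfr1, its partner, was the steadier of the pair, at 54.1, 40.7, 54.4 and 52.8 CPM in vehicle kidneys and 47.9 to 59.8 CPM (median 53.2) in 7c kidneys, a log2 fold change of 0.08 ± 0.113 (SE).

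The transporters did not separate the groups. Slc34a3 had 82.5, 123, 77.3 and 87.4 CPM in vehicle kidneys and 77.4 to 104 CPM (median 99.2) in 7c kidneys, with a log2 fold change of 0.06 ± 0.141 (SE) that ran from -0.01 to 0.24 over all alternatives. Trpv5 had 9.18, 3.26, 12.6 and 10.2 CPM in vehicle kidneys and 4.13 to 12.3 CPM (median 9.55) in 7c kidneys, with a log2 fold change of 0.05 ± 0.351 (SE) that ran from -0.22 to 0.28. No 7c kidney lay outside the vehicle range for either gene. Vehicle kidney 2 and 7c kidney 5, the lowest of their groups for Trpv5, were also the lowest of their groups for Kl.

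In liver, Klb had 19.2, 22.7, 27.7 and 26.3 CPM with vehicle and 17.1 to 30.8 CPM (median 22.9) with 7c, a log2 fold change of -0.06 ± 0.157 (SE) that ran from -0.21 to 0.02 over all alternatives. Cyp2r1 had 9.84 to 18.1 CPM (median 13.2) with 7c, against the vehicle values given above, a log2 fold change of -0.22 ± 0.193 (SE) that ran from -0.36 to -0.06 with single mice left out. Both groups overlapped for both genes.

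Fgfr1 varied most in liver. It had 8.77, 4.10, 4.04 and 4.74 CPM in vehicle livers and 3.08, 6.34, 2.79, 10.4, 5.96 and 18.1 CPM in 7c livers 1 to 6. The 7c values lay on both sides of the vehicle values, 2 below and 2 above all of them. The log2 fold change of 0.53 ± 0.467 (SE, adjusted p = 1.00 in edgeR) fell to 0.09 without 7c liver 6, rose to 0.86 without vehicle liver 1 and was -0.05 with the replicate number as a block. In 7c liver 6 the skeletal muscle genes Acta1, Ckm, Myh4, Mylpf and Tnnt3 summed to 606 CPM, and in the other 9 livers to at most 1.79 CPM. The 5 macrophage genes (Clec4f, Cd5l, Adgre1, Cd68, Csf1r) summed to 80.4, 137 and 96.7 CPM in 7c livers 6 and 4 and vehicle liver 1, the 3 livers highest for Fgfr1, and to between 136 and 275 CPM in the other 7. Other sums of marker genes varied with Fgfr1 across the livers too, given as descriptions. Its r was -0.86 with the macrophage sum, -0.77 with stellate cell and fibroblast genes, -0.60 with endothelial genes and -0.54 with cholangiocyte genes. With the muscle and adipocyte sums it was 0.68 and 0.33. The parts of muscle RNA, of macrophages and of these other cells were not tested.

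**Figure D3:**
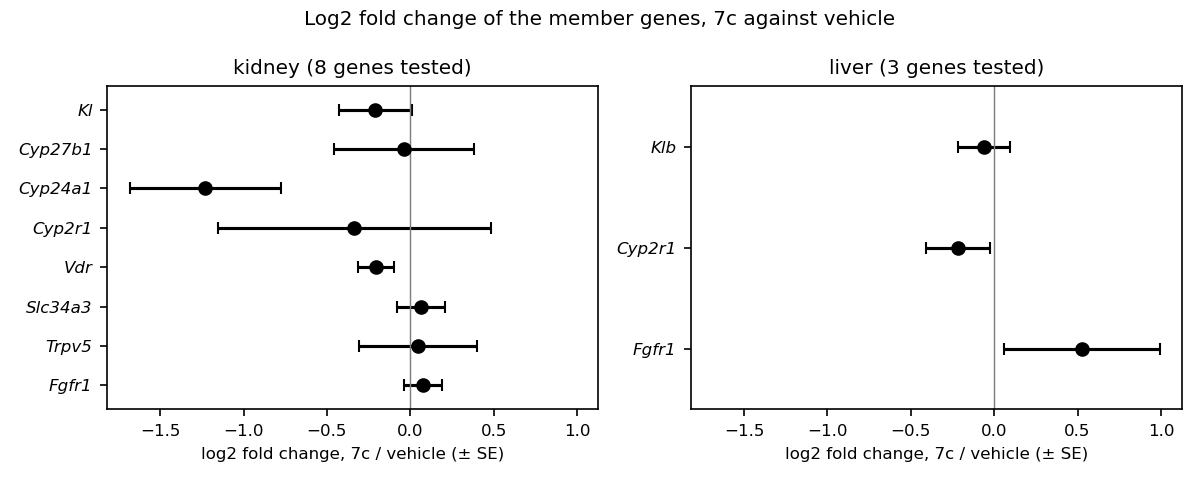
Log2 fold change of 7c over vehicle with its SE for the 8 members tested in kidney (left) and the 3 tested in liver (right), from edgeR's quasi-likelihood fit. Cyp24a1 in kidney, at -1.23, is the point farthest from 0, and no point passed an adjusted p of 0.05.

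Whether 7c acted differently in the organs could be tested for the 2 members that passed the filter in both. The liver minus kidney difference of the log2 fold change was 0.17 ± 0.695 for Cyp2r1 and 0.44 ± 0.504 for Fgfr1 (SE, adjusted p = 1.00 for both in edgeR's interaction test), where 0.00706% of 14163 genes were called. The other 7 members entered this test only when genes passing the filter in either organ were taken, and none of them was called then.

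Across the 10 kidneys, 6 pairs of members were correlated on the log2 CPM scale, with permutation p-values adjusted over the 6 pairs. Kl and Trpv5 rose and fell together, with r = 0.84 (permutation p = 0.00294, adjusted p = 0.0141) and rho = 0.72 (permutation p = 0.0235, adjusted p = 0.0710). The coefficient was 0.58 without the 2 kidneys farthest from the median of Kl and 0.92 in the 7c kidneys alone. Genes outside the group followed each of them more closely, such as Hnrnpk with Kl (r = 0.99) and Supt16 with Trpv5 (0.98). The 2 kidneys lowest for both, 7c kidney 5 and vehicle kidney 2, also had the lowest TMM factors of the kidneys (0.929 and 0.906). The permutation p therefore cannot show a relation particular to this pair. Vdr and Cyp24a1 gave r = 0.82 (permutation p = 0.00470, adjusted p = 0.0141) and rho = 0.72 (permutation p = 0.0237, adjusted p = 0.0710). Their r was 0.62 without the 2 kidneys farthest from the median of Vdr and 0.27 in the 7c kidneys alone. It was 0.73 over all 10 once the group means were removed. That value takes in the 4 vehicle kidneys, where r was 0.99 and vehicle kidney 1 was lowest for both genes. Cyp27b1 and Cyp24a1 had r = 0.60 (permutation p = 0.0641, adjusted p = 0.128), rho = 0.66 (adjusted p = 0.0864), and r = 0.64 in the 7c kidneys alone. They did not pass the adjusted threshold, and both were highest among 7c kidneys in replicate 6.

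The remaining pairs were weaker. Kl had r = -0.02 with Cyp24a1 (rho = -0.31; permutation p = 0.947 and 0.387) and r = 0.05 with Cyp27b1 (rho = -0.21; permutation p = 0.890 and 0.561), and Slc34a3 and Cyp27b1 had r = 0.34 (rho = 0.47; permutation p = 0.343 and 0.181). Without the 2 farthest kidneys these were 0.24, 0.46 and 0.23. The vehicle group of 4 was too small for a coefficient of its own to be read alone.

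**Figure D4:**
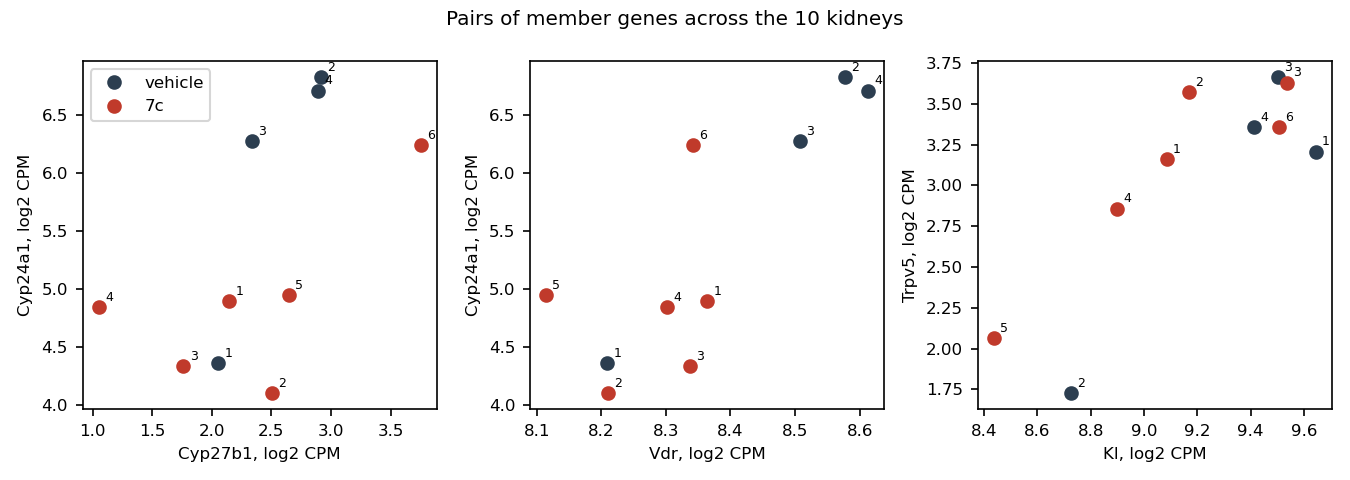
Log2 CPM of 3 pairs of member genes in the 10 kidneys, vehicle (dark) and 7c (red), each point with its replicate number. Vdr and Cyp24a1 (middle) place vehicle kidneys 2, 3 and 4 at the upper right, and Kl and Trpv5 (right) place 7c kidney 5 and vehicle kidney 2 at the lower left.

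The summed marker genes of tubule segments varied with some members across the 10 kidneys, given as descriptions since all genes of a library share its dissection and depth. Kl had r = 0.72 with the sum of the 5 thick limb genes named above and r = -0.73 with that of 5 collecting duct genes (Aqp2, Aqp3, Fxyd4, Hsd11b2, Atp6v1g3), which spanned 328 to 617 CPM. Its r with the 7 distal and connecting tubule genes, where klotho is most abundant, was -0.53. Trpv5 had r = 0.68, -0.66 and -0.42 with the same 3 sums. The distal genes did not move alike, so a negative r with their sum does not hold for each of them. In 7c kidney 5 and vehicle kidney 2, the lowest of their groups for Kl and Trpv5, Calb1 (176 and 212 CPM) was also lowest. So was Slc8a1 (58.2 and 62.3 CPM), while S100g (380 and 316 CPM) was highest of its groups there. Slc34a3, a gene of the proximal tubule, had r = 0.82 with the collecting duct sum and -0.03 with the sum of the 8 proximal tubule genes. Its level thus did not follow that sum, which is weighted to its most abundant genes. Slc34a1 alone had 5821 to 7607 CPM in the kidneys, where the sum was 12202 to 14287 CPM. The part of segment makeup in these levels was not tested.

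The genes most like each member were sought among 10806 kidney and 9378 liver genes by r over the 10 libraries. The closest to Kl were Clint1 (r = 0.99), Hnrnpk (0.99) and Pigg (0.99), and the closest to Trpv5 was Supt16 (0.98). For Fgfr1 in kidney it was Hoxc6 (0.96), for Slc34a3 P3h3 (0.96), for Cyp27b1 Rtn4rl1 (0.90), for Vdr Arhgef39 (0.88) and for Cyp24a1 Col12a1 (0.85). In liver Klb was closest to Ykt6 (0.92), Cyp2r1 to Fuca1 (0.91) and Fgfr1 to Fxr2 (0.94). With so many genes searched over 10 libraries, coefficients of this size are a ranking and not a relation.

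The wider pathway was described with 63 other genes in 11 lists. None of the 46 tested in liver and none of the 56 tested in kidney was called between 7c and vehicle, and their median log2 fold changes were -0.01 and -0.04, against 0.00 and -0.01 over all genes tested. An unadjusted p under 0.05 was reached by 0 of 46 in liver and 1 of 56 in kidney. That gene was Cyp3a11, a hepatic cytochrome that also hydroxylates vitamin D, with a log2 fold change of -2.21 ± 0.735 in kidney (SE, unadjusted p = 0.0104 in edgeR).

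By role, the FGF ligands and receptors (8 genes, 5 tested in each organ) had medians of 0.09 in liver and 0.12 in kidney, and Fgfr4, the FGF receptor partner of Klb in hepatocytes, had 0.09 ± 0.0879 and 0.12 ± 0.123 (SE). The other receptors Fgfr2 (-0.23 ± 0.156 in liver and -0.04 ± 0.177 in kidney) and Fgfr3 (0.36 ± 0.185 and -0.22 ± 0.187) were not called either. Fgf23, the bone hormone, had no count in any library, which allows up to 3 counts in each, with the same limit. Fgf21, a hormone of the fasted liver that acts through Klb, had 2.91 ± 2.60 CPM in vehicle livers (SD, n = 4), 2.56 ± 1.64 CPM in 7c livers (SD, n = 6) and a log2 fold change of -0.18 ± 0.621 (SE). The feedback and target genes of FGF signalling lay below 0 in 7 of 7 tested in liver (median -0.26, range -0.69 to -0.01) and in 7 of 8 in kidney (median -0.07, range -0.28 to 0.21), none of them called. In liver the lowest were Spry2, an inhibitor of receptor tyrosine kinase signalling, at -0.69 ± 0.341, the immediate early gene Egr1 at -0.65 ± 0.369 and Spry4, another inhibitor, at -0.54 ± 0.278 (SE), while Dusp6, an ERK phosphatase, had -0.15 ± 0.183 there and -0.14 ± 0.199 in kidney. Cyp7a1, the rate-limiting enzyme of bile acid synthesis, which FGF15 represses through Klb and Fgfr4, had -0.20 ± 0.228 in liver (SE).

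The phosphate transporters and scaffolds lay above 0 in 6 of 6 tested in liver (range 0.01 to 0.19) and in 3 of 7 in kidney (median -0.06), and Slc34a1, the main renal phosphate cotransporter, had 0.01 ± 0.110 in kidney (SE). The calcium transport genes had a median of 0.16 over 9 tested in kidney, 6 above 0, and of -0.11 over 5 tested in liver. Among the partners of Trpv5 in distal calcium reabsorption, the calcium binding protein Calb1 had -0.04 ± 0.176, S100g, which encodes calbindin-D9k, 0.32 ± 0.227, the exchanger Slc8a1 0.16 ± 0.193 and the related channel Trpv6 0.26 ± 0.321 in kidney (SE), and Slc8a1 in liver -0.72 ± 0.542. The mineral hormone sensing genes had a median of -0.21 over 4 tested in kidney, with Stc1, a phosphate-regulating hormone of the tubule, lowest at -0.74 ± 0.344 (SE, unadjusted p = 0.0529 in edgeR) and the calcium-sensing receptor Casr at -0.04 ± 0.173 (SE). The parathyroid hormone receptor Pth1r had 0.14 ± 0.215 in kidney and -0.13 ± 0.194 in liver (SE). The magnesium genes lay below 0 in 3 of 3 tested in liver and 3 of 4 in kidney. The vitamin D carrier, uptake and synthesis genes (median 0.05 over 6 tested in liver and 0.01 over 7 in kidney), the partners of Vdr (median -0.03 over 5 and -0.08 over 5), the klotho-shedding proteases Adam10 and Adam17 (median 0.08 in liver and -0.03 in kidney) and the mineralization genes (0.04 over 5 and -0.04 over 5) held no call either. Among them, the vitamin D binding protein gene Gc had 0.05 ± 0.0957 in liver, the uptake receptor Lrp2 (megalin) -0.13 ± 0.143 in kidney, the hydroxylase Cyp27a1 0.05 ± 0.107 in liver and -0.01 ± 0.167 in kidney, and Rxra, the dimer partner of Vdr, -0.06 ± 0.110 in liver and -0.06 ± 0.0985 in kidney (SE).

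**Figure D5:**
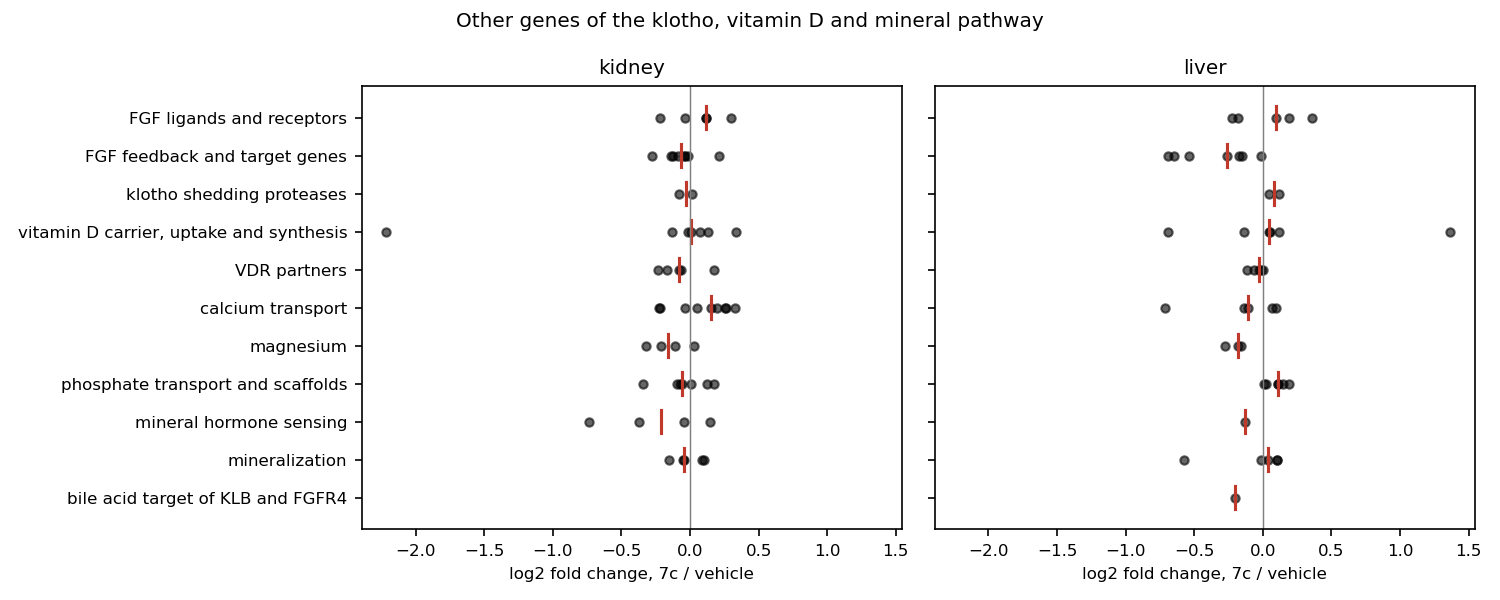
Log2 fold change of 7c over vehicle for each tested gene of the 11 pathway lists in kidney (left) and liver (right), with the red tick at the median of a list. The point at -2.21 in kidney is Cyp3a11, and no gene passed an adjusted p of 0.05.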

How the data were processed

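Stranded libraries of polyadenylated RNA were aligned by the authors to GRCm39 with STAR 2.7.11b and counted with featureCounts 2.0.6, as named in the submitters' processing notes, and the deposited values are raw counts per Ensembl gene. The annotation release, strand setting and treatment of multi-mapping reads are not given in the sources used here. Symbols and exon lengths came from GENCODE vM39, which matched 56310 of 57010 genes.

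Genes reaching 10 counts in 50% or more of the libraries compared were tested with edgeR 4.0.16 (R 4.3.3), using TMM scaling, the quasi-likelihood F-test and Benjamini-Hochberg adjustment over all genes tested. Correlations were computed on log2 CPM (prior count 2). Permutation tests were two-sided, exact over 210 splits for group differences. Alternatives were RLE size factors, DESeq2 1.42.0, the likelihood ratio test, limma-voom (limma 3.58.1), other filters, a replicate block, both tissues in 1 fit, each mouse left out and, chosen after seeing the data, halved counts. Where both organs were in the comparison, the liver and kidney of the same group and replicate number were left out together, which the labels do not give as 1 mouse. The fits were tested on simulated data.

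The members, the 63 pathway genes and the marker lists were chosen with earlier results of these data known. The rule for named genes was the 9 members in each comparison, up to 3 genes most like each by r, and the pathway genes given with values, except that Cyp3a11, Egr1, Spry2, Spry4 and Stc1 were named after their values were seen. Counting intervals and floors cover counting error only. The labels call the replicates biological. Some marker lists are not reported here.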

Additional observations from a re-analysis of the deposited data

Results flagged for a closer look

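Of 22 groups of member values tested for a lone library, 5 held one, where chance gives about 1 in 20. The 7c kidney of replicate 6 stood above the other 7c kidneys for Cyp27b1 at 13.4 CPM and for Cyp24a1 at 75.3 CPM. The 7c kidney of replicate 3 stood below the rest of its group for Slc34a3 at 77.4 CPM. Fgfr1 was high in the liver of vehicle replicate 1 at 8.77 CPM and low in the kidney of vehicle replicate 2 at 40.7 CPM.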

How the results depend on the processing

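No member or pathway gene was called between 7c and vehicle, or in the difference between organs, under any alternative run, and of 209 alternative fold changes of members 196 kept their direction and 13 reversed. The genes called in liver were 6 with DESeq2, 7 with the likelihood ratio test, 4 without a filter, 2 with filterByExpr, 4 with both tissues in 1 fit, and 0 to 2 with a mouse left out, against 1. In kidney, against 0, they were 18, 14, 3, 0 and 18 in the same order, 2 with limma-voom, 2 with halved counts, and 0 to 3 with a mouse left out. In the difference between organs they were 14 with DESeq2, 4 with genes passing in either tissue and 0 to 6 with 1 replicate number of a group left out of both organs, against 1. With a mouse left out, the fold change ran from -0.163 to 0.0181 for Klb in liver and in kidney from -0.48 to 0.14 for Cyp27b1, -0.0136 to 0.237 for Slc34a3, -0.22 to 0.27 for Trpv5 and -0.00724 to 0.115 for Fgfr1. With a replicate number left out of both organs, the difference between organs for Cyp2r1 ran from -0.13 to 0.53. The r of Kl with Cyp24a1 was 0.15 in 7c kidneys alone, 0.24 without the 2 farthest kidneys and -0.15 to 0.22 with one left out, and that of Kl with Cyp27b1 ran from -0.17 to 0.17.

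With the longest transcript as length, the levels in CPM per kb were, for 7c and vehicle kidneys, 97.6 and 113 for Kl, 71.1 and 81.9 for Vdr and 8.67 and 8.22 for Fgfr1, and for livers 5.70 and 5.95 for Klb and 1.27 and 0.880 for Fgfr1, and the order of the means was the same. The ranges of Cyp24a1 (lowest 5.74 in vehicle and 4.79 in 7c kidneys) and Fgfr1 (highest 8.86 and 9.73) then overlapped, those of Fgfr1 (lowest 6.62 and 7.80) and Trpv5 (highest 3.89 and 3.80) no longer did, nor did those of Vdr (lowest 67.6) and Slc34a3 (highest 56.3) in vehicle kidneys. The cause of these shifts in counts of calls was not tested.

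The replicate numbers of 7c and vehicle mice share only a number (r of deviations -0.05 to 0.21), and with them as a block 0 genes were called in liver, 0 in kidney and 0 in the difference between organs, with Cyp24a1 at -1.56 in kidney and Fgfr1 at -0.0474 in liver. Livers and kidneys of the same number had r from 0.01 to 0.26, and 8 of 10 livers correlated best with the kidney of their own number, a hint from the data and not the design. Depth limits Klb and Cyp2r1 in kidney and the other 6 members with few or no counts in liver.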
